A study of Mus musculus with 6 samples.

Results

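The group of miR-741, miR-743a, miR-871, miR-880 and their neighbours is a set of X-linked miRNAs whose hairpins lie close together on the mouse X chromosome. Its members were taken by name, as any arm of miR-741, miR-742, miR-743a, miR-743b, miR-871, miR-878, miR-880 or miR-881, and 11 of the 718 entries of the miRNA table met that rule. The group was selected on measured values: mmu-miR-741-3p, mmu-miR-743a-3p, mmu-miR-871-3p and mmu-miR-880-3p were picked because they stood higher in the vesicles of mice fed a high-fat diet (HFD) than in those of mice fed a normal chow diet (NCD). Differences between the diets are therefore given below as a description, without a test. The other listed members were mmu-miR-743b-3p, mmu-miR-881-3p, mmu-miR-878-3p, mmu-miR-878-5p, mmu-miR-743a-5p, mmu-miR-871-5p and mmu-miR-743b-5p, and miR-742 was not analysed here.

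The RNA came from small extracellular vesicles (sEVs), the membrane-enclosed particles that cells release, from cultured islets of wild-type (WT) C57/B6J mice. Normal islet-derived sEVs (nid-sEVs) came from NCD-fed mice and adaptive islet-derived sEVs (aid-sEVs) from mice fed the HFD for 9 weeks, with 3 libraries for each. In both groups the islets spent 48 hours in medium without serum, and 5 ng of vesicle RNA went into each small RNA library. In the mouse model the diets began at 8 weeks of age. How many mice stood behind a library, whether animals were pooled, and the sex of the animals behind these libraries were not given in the sources used here. An islet holds endocrine cells together with vessel, stromal and immune cells, so a vesicle preparation is a bulk sample: fewer releasing cells of a type and less RNA per cell cannot be told apart.

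A mature miRNA is cut from the 5p or the 3p side of a hairpin and guides silencing complexes to messenger RNAs that pair with its seed, bases 2 to 8 from the 5′ end. Members with the same seed can pair with the same sites, and members with different seeds generally cannot. The hairpins of this group belong to a miRNA-rich stretch of the X chromosome between Slitrk2 and Fmr1 that has evolved rapidly among mammals and is known mainly from testis and male germ cells.

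The 3p arms of the hairpins are shown first because nearly all reads of the group fell on them and because their seeds tell which members could share targets. All 11 members were matched in RefSeq (GRCm38.p6), and the seed is in capitals, with each sequence written 5′ to 3′.
miR-743a-3p: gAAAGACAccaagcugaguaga
miR-743b-3p: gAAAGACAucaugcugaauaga
miR-741-3p: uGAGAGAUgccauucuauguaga
miR-871-3p: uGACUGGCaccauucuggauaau
miR-880-3p: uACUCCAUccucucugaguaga
miR-881-3p: aACUGUGUcuuuucugaauaga
miR-878-3p: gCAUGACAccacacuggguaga

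Among the 3p arms, only miR-743a-3p and miR-743b-3p shared a seed, AAAGACA, and no other mature miRNA of the RefSeq table carried it. They were identical at 19 of 22 bases and differed by C9U, A12U and G18A, counted from 1 at the 5′ end with the base of miR-743a-3p first. The most abundant pair, miR-741-3p and miR-871-3p, had different seeds and an identity of 56.5%, with a common run of ccauucu in the middle. Over the 21 pairs of 3p arms the median identity was 45.5%, with a range of 9.09 to 86.4%. Their 3′ ends were more alike than their seeds: CUGNNUAGA, searched on the mature strand and chosen after the sequences were seen, was in 5 of the 7 3p arms and in 9 of all 1679 mature names, or 0.536%. The letters of miR-741-3p and miR-871-3p did not match it.

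The 5p arms showed the other shared seed, and they are printed because 3 of the 4 start almost alike.
miR-743a-5p: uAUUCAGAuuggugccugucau
miR-871-5p: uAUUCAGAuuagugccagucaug
miR-743b-5p: uGUUCAGAcugguguccauca
miR-878-5p: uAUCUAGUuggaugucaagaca

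The seed AUUCAGA was common to miR-743a-5p and miR-871-5p, although the 3p arms of these hairpins had different seeds. The seed of miR-743b-5p was found in one more mature miRNA of the table, miR-6948-5p, which lies outside the group. In all, the 11 members carried 9 different seeds and were 21 to 23 bases long. A U was the first base in 7 of them, a G in 3 and an A in 1, and their GC content ran from 31.8 to 54.5%.

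In GRCm38 the 8 hairpins of the group lay on the minus strand of chromosome X between 66776757 and 66810504, a span of 33.7 kb. From the low end the order was Mir743, Mir743b, Mir742, Mir741, Mir880, Mir878, Mir881 and Mir871. Mature miR-743a-3p occupied chrX:66776760-66776781, miR-743b-3p chrX:66777266-66777287, miR-741-3p chrX:66796809-66796831, miR-880-3p chrX:66800540-66800561, miR-881-3p chrX:66801954-66801975 and miR-871-3p chrX:66810438-66810460. In the GENCODE M21 annotation each hairpin was the exon of its own miRNA gene and overlapped no other gene. The nearest protein-coding genes were Slitrk2, 115 kb beyond the low end, and Gm1140, 872 kb beyond the high end. The hairpins of 4 other miRNAs, Mir883a, Mir883b, Mir471 and Mir463, lay inside the span, and 7 more, among them Mir470 and the copies of Mir465, followed at its high end, which made 19 hairpins in 62.4 kb.

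**Figure D1:**
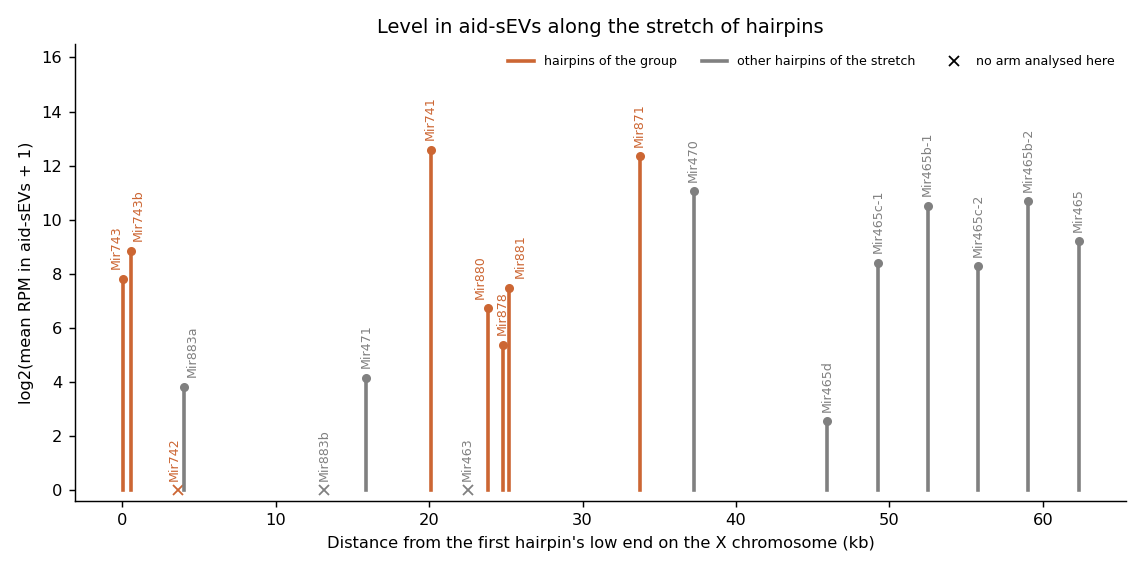
The x axis gives the distance in kb from the low end of the first hairpin on the X chromosome, and the y axis the log2(mean RPM + 1) over the 3 aid-sEV libraries, summed over the listed arms of each hairpin. Orange lines are the hairpins of the group, grey lines the other hairpins of the stretch, crosses hairpins with no arm analysed here, and a miRNA that copies of a hairpin have in common is drawn at each copy. The highest hairpins, Mir741 with a mean of 6166 RPM and Mir871 with 5232 RPM, stand 13.6 kb apart with far lower hairpins of the group between them.

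Position along the stretch did not order the levels in aid-sEVs, as the plot of levels by hairpin shows. Between Mir741 and Mir871 lay Mir880 with a mean of 105 RPM, Mir878 with 40.2 RPM and Mir881 with 179 RPM. The hairpins of miR-743a and miR-743b, 437 bp apart, had 224 and 460 RPM.

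Values are in RPM, each entry's reads scaled to the same total in every library, and whole reads were recovered from them. The nid-sEV libraries were the shallower ones, with 129152, 65671 and 50534 reads in replicates 1, 2 and 3, against 519315, 352244 and 122266 in the aid-sEV libraries. A count of 3 reads, taken here as the level that a count of 0 still allows, was worth 23.2 to 59.4 RPM in nid-sEVs and 5.78 to 24.5 RPM in aid-sEVs. In nid-sEV replicate 1, 33.4% of reads were in entries with no miRBase name, against 6.61 to 9.45% in the other libraries. The islet endocrine markers miR-375-3p, miR-7a-5p, miR-7b-5p and miR-184-3p were all listed and summed to 164821 to 186134 RPM in aid-sEVs, whereas the nid-sEV libraries had 74718 to 360886 RPM. miR-375-3p carried most of that sum. Within the list miR-7b-5p was higher in every aid-sEV library, at 11764 to 14825 RPM, than in the nid-sEV libraries, at 3578 to 3933 RPM. The others overlapped and had lower aid-sEV means: miR-375-3p 151896 against 184473 RPM, miR-7a-5p 9744 against 10950 RPM and miR-184-3p 2680 against 10708 RPM. All intervals given below are 95% intervals for counting error alone and leave out the spread between libraries. Reads without molecular identifiers are not independent molecules, so the intervals may be too narrow even for counting error.

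The most abundant member in aid-sEVs was miR-741-3p. In aid-sEV replicates 1, 2 and 3 its reads numbered 2364, 2443 and 857, or 4552, 6936 and 7009 RPM. In nid-sEV replicates 1, 2 and 3 it had 1, 4 and 3 reads, or 7.74, 60.9 and 59.4 RPM. Every aid-sEV library stood far above every nid-sEV library, and the groups did not come near each other. The aid-sEV mean was 6166 ± 1398 RPM and the nid-sEV mean 42.7 ± 30.3 RPM (SD, n = 3), a ratio of 144, and on pooled reads the ratio was 175 with an exact interval of 88.6 to 405. Without nid-sEV replicate 1 the pooled ratio was 94.6. Among the named entries miR-741-3p ranked 31, 22 and 23 by level in aid-sEV replicates 1, 2 and 3, and 296, 206 and 162 in the nid-sEV replicates.

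miR-871-3p followed closely, with 1955, 2266 and 668 reads in the aid-sEV libraries, or 3765, 6433 and 5463 RPM. The nid-sEV libraries held 0, 4 and 7 reads of it, or 0, 60.9 and 139 RPM. As for miR-741-3p, aid-sEV replicate 1 was the lowest of its group and nid-sEV replicate 1 the lowest of the other, and the groups did not overlap. The aid-sEV mean was 5220 ± 1351 RPM and the nid-sEV mean 66.5 ± 69.4 RPM (SD, n = 3), a ratio of 78.5, with a pooled ratio of 110 and an exact interval of 61.3 to 220. These ratios depended on the nid-sEV libraries: without replicate 3 the ratio of means was 171 and the pooled ratio 240, and without replicate 1 they were 52.4 and 52.0. miR-871-3p ranked 38, 23 and 30 among the named entries of the aid-sEV libraries.

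The members that share the seed AAAGACA came after a wide gap. miR-743b-3p had 172, 158 and 72 reads in aid-sEVs, or 331, 448.6 and 589 RPM, and 0, 1 and 1 reads in nid-sEVs, or 0, 15.2 and 19.8 RPM. Its mean was 456 ± 129 RPM against 11.7 ± 10.4 RPM (SD, n = 3), and the pooled ratio was 49.6 with an exact interval of 13.6 to 411. Resting on 2 nid-sEV reads, it was 23.5 without nid-sEV replicate 1 and 78.8 without replicate 3. Its near-copy miR-743a-3p had 102, 77 and 25 reads, or 196, 219 and 204 RPM, and no read in any nid-sEV library. With a mean of 206 ± 11.2 RPM (SD, n = 3) it was at least 3.48-fold higher in aid-sEVs than the 59.4 RPM that a count of 0 allows in the shallowest nid-sEV library. It varied less among the aid-sEV libraries than the other members, with an SD of 5.44% of its mean, against 22.7% for miR-741-3p. Counting error alone gave an interval of 139 to 302 RPM for its 25 reads in aid-sEV replicate 3. The small SD is therefore not read as a trait of this member. The 3 bases by which these near-copies differ leave room for reads to be split between them in counting, and how the counting treated such reads was not given in the sources used here.

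miR-881-3p had 103, 47 and 25 reads in aid-sEVs, or 198, 133 and 204 RPM, and 1, 0 and 0 reads in nid-sEVs. Its aid-sEV mean was 179 ± 39.4 RPM (SD, n = 3), and the pooled ratio was 43.2 with an exact interval of 7.65 to 1716. The interval is wide because it rests on a single nid-sEV read, in replicate 1, without which no ratio can be given. miR-880-3p had 48, 32 and 16 reads in aid-sEVs, or 92.4, 90.8 and 131 RPM, and none in nid-sEVs. Its mean of 105 ± 22.7 RPM (SD, n = 3) was at least 1.76-fold above the same 59.4 RPM. For both of them every aid-sEV library lay above every nid-sEV library.

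The remaining 5 members were sparse. In aid-sEV replicates 1, 2 and 3 there were 5, 19 and 0 reads of miR-878-3p, with miR-878-5p at 11, 4 and 3, and miR-743a-5p at 14, 3 and 2. miR-871-5p had 1, 6 and 2 reads and miR-743b-5p 0, 1 and 1. None of the 5 had a read in nid-sEVs, and their aid-sEV means, from 3.67 to 21.2 RPM, were under the 59.4 RPM that a count of 0 allows there, so no fold is given for any of them. miR-878-5p and miR-743a-5p were nevertheless called higher in the fit over all entries described below, and these calls rest on nid-sEV counts of 0 in shallower libraries.

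**Figure D2:**
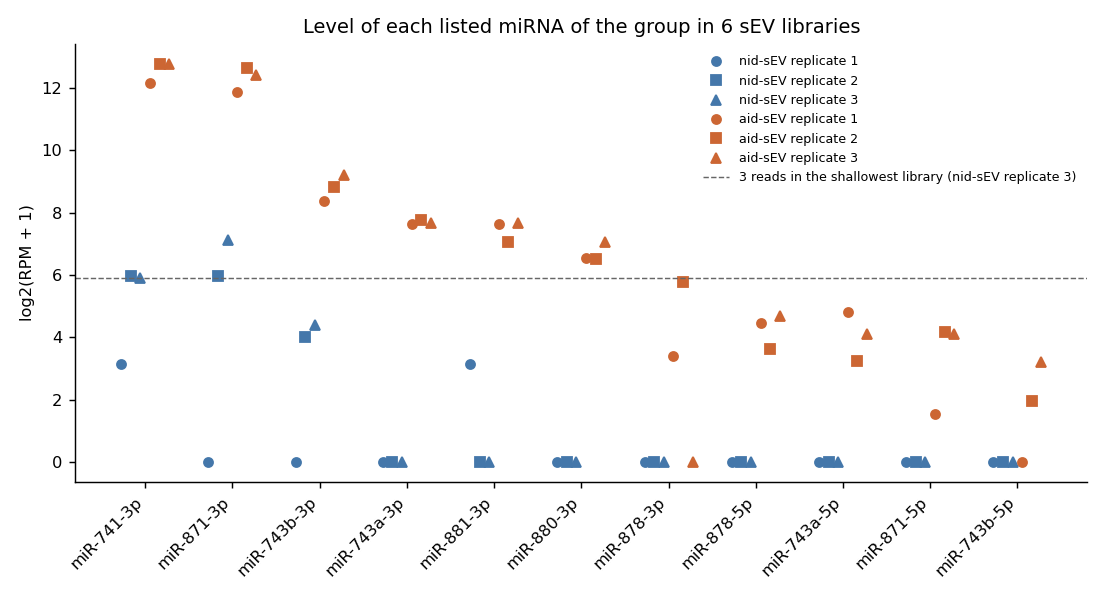
Each point is the log2(RPM + 1) of a listed miRNA on the y axis in 1 library, with the 11 members on the x axis ordered by their mean in aid-sEVs, nid-sEV libraries in blue and aid-sEV libraries in orange. The dashed line marks 3 reads in the shallowest library, 59.4 RPM. The 6 members at the left have all aid-sEV points above the line, while 7 members have all nid-sEV points at 0.

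Over the group, 7 of the 11 members were at 0 in all nid-sEV libraries, against 155 of the 718 entries, or 21.6%. Every aid-sEV library stood above every nid-sEV library for 9 members, a pattern that 24.2% of all entries showed. In the limma fit over the whole table, 8 members were called higher in aid-sEVs and none lower, where 112 of 718 entries, 15.6%, were called higher, with a call needing a log2 difference over 1 and an adjusted p (Benjamini-Hochberg) under 0.05. Since this contrast chose the group, nothing is read from these counts. miR-878-3p, miR-871-5p and miR-743b-5p were the members not called, and 2 of the 8 calls, miR-878-5p and miR-743a-5p, were of members whose levels lay under the 59.4 RPM given above. The median log2 difference on the log2(RPM + 1) scale was 6.0 over the 11 members, 1.11 over all entries and -0.21 over the 219 entries with reads in all 6 libraries. With the 7 members at 0 in nid-sEVs put at their lower bounds, and the 5 among them with no fold at 0, the median of the members was 0.82. Treated in the same way, all 718 entries had a median of 0.0.

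Summed over the group, aid-sEV replicates 1, 2 and 3 held 4775, 5056 and 1671 reads, or 9195, 14354 and 13667 RPM. The nid-sEV replicates held 2, 9 and 11 reads, or 15.5, 137 and 218 RPM, so the deepest nid-sEV library was the lowest. The means were 12405 ± 2801 RPM and 123 ± 102 RPM (SD, n = 3), a ratio of 100.5. Without nid-sEV replicate 3 the ratio was 163, and leaving out any other library gave 69.9 to 114. The group made up 0.919 to 1.44% of the reads of an aid-sEV library and at most 0.0218% of those of a nid-sEV library.

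The depth of the libraries went with the diets, and a pair of similar depth was therefore set side by side. nid-sEV replicate 1, with 129152 reads, held 2 reads of the group, and aid-sEV replicate 3, with 122266 reads, held 1671. In this pair miR-741-3p had 1 and 857 reads, miR-871-3p 0 and 668, and miR-743b-3p 0 and 72. The pair is 1 library of each diet, and nid-sEV replicate 1 is also the library with the large share of reads in unnamed entries and with the lowest summed level of the group. The part of depth in the levels of the group was not tested.

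**Figure D3:**
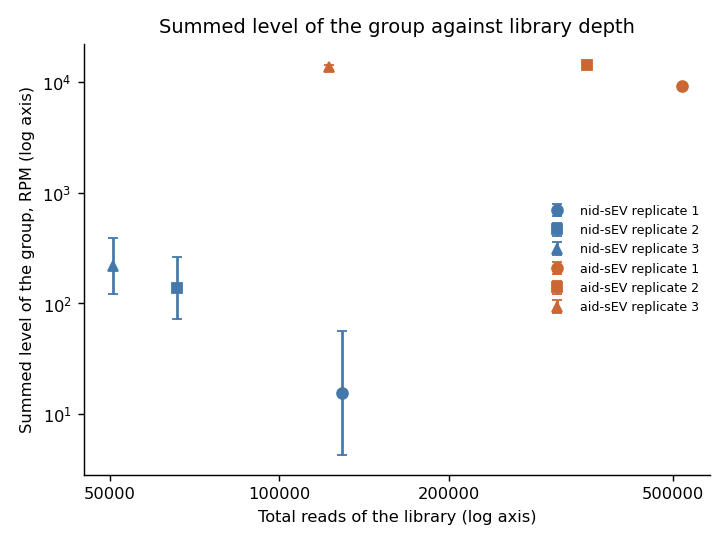
The x axis gives the total reads of a library and the y axis the summed RPM of the 11 members, both as log axes, with 95% Wilson intervals for counting error. The 3 aid-sEV libraries lie between 9195 and 14354 RPM at every depth, and the 3 nid-sEV libraries at or below 218 RPM, the lowest being the deepest of them.

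The make-up of the group, over its listed arms, was led by the same pair in every aid-sEV library, miR-741-3p and miR-871-3p. Shares within the group were not used to choose it. Both miRNAs of the pair were picked because they stood higher in aid-sEVs, however, so the make-up is not independent of that choice. miR-741-3p made up 49.5, 48.3 and 51.3% of the group's reads in replicates 1, 2 and 3, with a mean of 49.7 ± 1.49% (SD, n = 3). miR-871-3p made up 40.9, 44.8 and 40.0%, with a mean of 41.9 ± 2.56%. The share of miR-871-3p in replicate 2 had a Wilson interval of 43.5 to 46.2%, which did not overlap the intervals of 39.6 to 42.3% and 37.7 to 42.3% in replicates 1 and 3. The rest was divided among miR-743b-3p with 3.68 ± 0.60%, miR-743a-3p with 1.72 ± 0.36%, miR-881-3p with 1.53 ± 0.61% and miR-880-3p with 0.87 ± 0.20%, and the sparse arms had 0.16% or less each. Of the 11 members, 4 had Wilson intervals that did not overlap between at least 1 pair of aid-sEV libraries: miR-871-3p, miR-881-3p, miR-878-3p and miR-743a-5p. For miR-878-3p and miR-743a-5p this rests on few reads, 5, 19 and 0 and 14, 3 and 2. The intervals were not adjusted for the number of pairs compared. miR-881-3p made up 2.16% of the group's reads in replicate 1, with an interval of 1.78 to 2.61%, and 0.93% in replicate 2, with an interval of 0.70 to 1.23%.

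The 22 reads of the group in the nid-sEV libraries fell on miR-741-3p, miR-871-3p, miR-743b-3p and miR-881-3p, which were also among the 5 most abundant members in aid-sEVs. miR-741-3p took 8 of these 22 reads, 36.4% with a Wilson interval of 19.7 to 57.0%, and miR-871-3p took 11, 50.0% with an interval of 30.7 to 69.3%. Both intervals include the mean share of the same miRNA in aid-sEVs, and a difference in make-up between the diets was not detectable with so few reads.

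**Figure D4:**
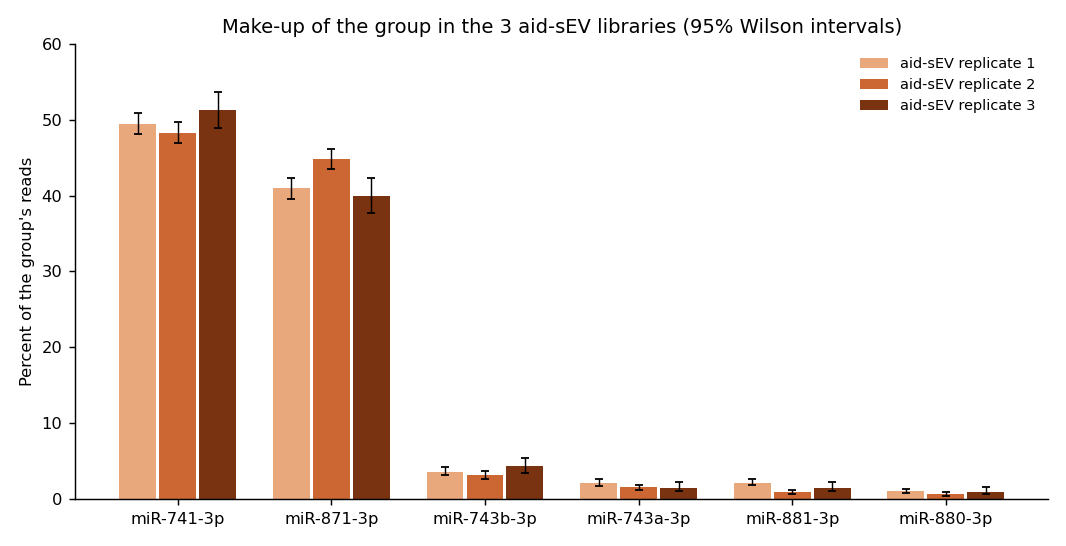
Bars give the percent of the group's reads on the y axis that fell on each of the 6 most abundant members, on the x axis, in the 3 aid-sEV libraries, with 95% Wilson intervals for counting error. miR-741-3p and miR-871-3p together take most of each library's reads, and the share of miR-871-3p is highest, at 44.8%, in replicate 2.

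Ordered by mean level in aid-sEVs, the abundant members fell into steps. miR-741-3p exceeded miR-871-3p in all 3 libraries, by 1.21, 1.08 and 1.28 times, but the ranges of the 2 miRNAs over the libraries overlapped. miR-871-3p exceeded miR-743b-3p 11.4-fold and miR-743b-3p exceeded miR-743a-3p 2.21-fold, with ranges apart in both cases, although the second ratio ran from 1.69 to 2.88 among libraries. miR-743a-3p and miR-881-3p did not differ beyond their spread: miR-743a-3p was the higher in 1 of 3 libraries. miR-881-3p exceeded miR-880-3p 1.71-fold, and miR-880-3p exceeded miR-878-3p 4.94-fold, again with ranges apart. Below miR-880-3p the ranges of neighbouring members overlapped. Small RNA libraries capture different miRNAs with different efficiency, so these are orders of reads, on miRNAs of nearly the same length.

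The reads of the group came almost wholly from 3p arms. Over all members the 3p share was 99.5, 99.7 and 99.5% in aid-sEV replicates 1, 2 and 3, with a mean of 99.57 ± 0.14% (SD, n = 3), and all 22 nid-sEV reads were from 3p arms. Both arms were listed for 4 hairpins, and miR-741, miR-880 and miR-881 were listed with the 3p arm alone. Over the 4 hairpins with both arms the mean 3p share was 99.09 ± 0.32%.

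The hairpins were not alike in this respect. On pooled aid-sEV reads the 3p share was 99.8% for miR-871, with 4889 reads of the 3p and 9 of the 5p arm, and 99.5% for miR-743b, with 402 and 2. For miR-743a it was 91.5%, with 204 and 19 reads and a Wilson interval of 87.1 to 94.5%, which lay below the intervals of 98.2 to 99.9% for miR-743b and 99.7 to 99.9% for miR-871. Replicate 1 held 14 of the 19 reads of miR-743a-5p, and in that library alone were the intervals of miR-743a, 80.8 to 92.7%, and miR-743b, 97.8 to 100%, apart. In replicates 2 and 3 they overlapped, so the difference between these near-copies rests on 1 library. miR-878 had 24 reads of the 3p and 18 of the 5p arm, a share of 57.1% with an interval of 42.2 to 70.9%. This share was 31.2, 82.6 and 0% in replicates 1, 2 and 3, and no single figure describes it.

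**Figure D5:**
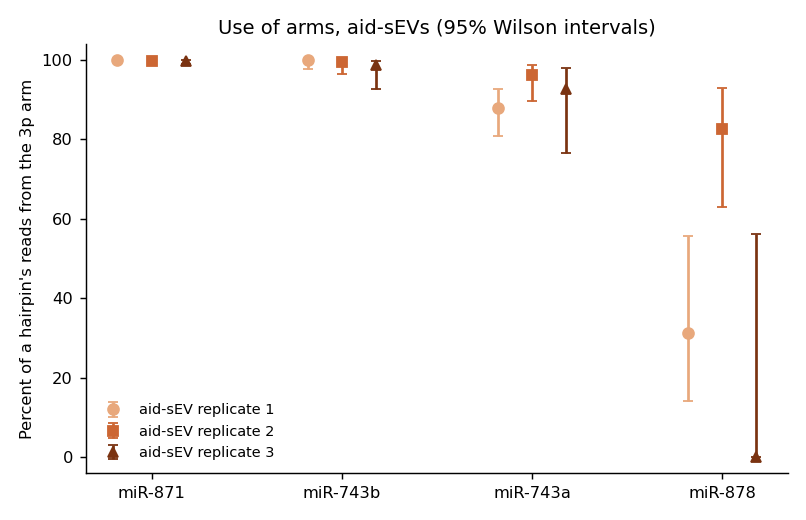
The y axis gives the percent of a hairpin's reads that came from its 3p arm in each aid-sEV library, with 95% Wilson intervals for counting error, for the 4 hairpins with both arms listed, on the x axis. miR-871 and miR-743b sit at 98.6% or higher in every library, miR-743a between 87.9 and 96.2%, and miR-878 anywhere from 0 to 82.6%.

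The other miRNAs of the same stretch were described from a list that was, like the group, drawn up with earlier results known. Of its 10 listed entries 7 were called higher in aid-sEVs and none lower in the limma fit, where 15.6% of all entries were called higher. These calls cannot all be of entries with an aid-sEV mean over the 59.4 RPM given above. miR-465c-3p, miR-471-3p, miR-883a-3p and miR-465d-3p lay under it, with means of 27.5, 16.7, 13.1 and 4.80 RPM. A call of such an entry rests on few or no nid-sEV reads in shallower libraries. The median log2 difference was 5.34, or 2.81 with the 6 entries at 0 in nid-sEVs put at their bounds. Over all entries these medians were 1.11 and 0.0. Their summed level was 4721 ± 900 RPM in aid-sEVs, while the nid-sEV libraries had 52.8 ± 42.2 RPM (SD, n = 3). The most abundant were miR-470-5p with a mean of 2130 RPM in aid-sEVs, miR-465b-3p with 1459 RPM, miR-465a-5p with 506 RPM and miR-465c-5p with 310 RPM. The group made up 68.8, 71.4 and 76.4% of the reads of the whole stretch in aid-sEV replicates 1, 2 and 3.

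miRNAs known from testis that lie on other chromosomes were compared with the group as a second list. Of the miR-34b/c, miR-449 and miR-202 arms, 2 were listed, and none was called in either direction. miR-34c-5p, a miRNA of testis and multiciliated cells, had 73.2, 11.4 and 89.97 RPM in aid-sEVs, whereas the nid-sEV libraries had 77.4, 670 and 416 RPM, so the groups overlapped and the aid-sEV mean was the lower. The other listed arm, miR-34c-3p, belongs to the same hairpin. It was sparse, at 23.2, 0 and 119 RPM (nid-sEVs) and 0, 2.84 and 0 RPM (aid-sEVs). The median log2 difference of the 2 arms was -2.93, against 1.11 over all entries. This median describes a single hairpin and rests in part on values of 0, so it cannot speak for testis miRNAs at large.

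The entries whose pattern over the 6 libraries was most like that of the group's summed level were found by Pearson's r on log2(RPM + 1), among 193 named entries outside the group with at least 10 reads in every aid-sEV library. They were miR-470-5p with r = 0.995, miR-362-5p with 0.987, let-7c-5p with 0.984, miR-298-5p with 0.981 and miR-484 with 0.969. miR-470-5p, whose hairpin is the next one on the stretch, had 1812, 2632 and 1947 RPM in aid-sEVs, whereas the nid-sEV libraries had 7.74, 45.7 and 39.6 RPM, with nid-sEV replicate 1 again the lowest. let-7c-5p, one of the most abundant miRNAs of the table, differed far less in size, with means of 104211 RPM (aid-sEVs) and 20391 RPM (nid-sEVs). The 6 points share their libraries, their depth and the split by diet, and 29 of the 193 candidates had an r over 0.9. The limit of 10 reads applied to the aid-sEV libraries alone, and all 10 candidates at 0 in every nid-sEV library were among these 29, so a high r follows in part from how candidates were chosen. Among the members, r with the sum of the others was 0.992 for miR-741-3p, 0.988 for miR-743b-3p and 0.954 for miR-871-3p, and it was lowest for the sparse miR-878-3p at 0.642. Since the contrast between these libraries chose the group, a high r of its members was likely beforehand, and nothing is read from it.

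Among the marker lists of other cells and tissues, only the blood cell sum and miR-122-5p of liver were apart between the diets. The blood cell list, all 7 of its miRNAs listed, summed to 400 to 1544 RPM in aid-sEVs, whereas the nid-sEV libraries had 4523 to 9198 RPM, with 3 of the 7 lower in every aid-sEV library. miR-122-5p of liver had 24.5 to 42.6 RPM in aid-sEVs, whereas the nid-sEV libraries had 396 to 3000 RPM. The acinar list, 3 of 3 listed, summed to 698 to 3370 RPM and 2533 to 8997 RPM, the endothelial list, 2 of 2 listed, to 679 to 1325 RPM and 989 to 3717 RPM, and the mesenchymal list, 5 of 5 listed, to 4480 to 11623 RPM and 5383 to 24080 RPM, so these 3 overlapped between the diets. Among the members of these 3 lists only miR-145a-5p, a mesenchymal one, was apart, at 98.1 to 225 RPM in aid-sEVs and 381 to 396 RPM in nid-sEVs. miR-199a-3p of the same list had the higher mean in aid-sEVs, 270 against 153 RPM. No marker of the lists of other cells and tissues was at 0 throughout a diet, and their part in the levels of the group was not tested.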

How the data were processed

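Small RNA libraries of islet sEVs (3 nid-sEV, NCD, and 3 aid-sEV, HFD) were analysed from a single deposited table of 718 entries, 479 of them with a miRBase name. Its values are RPM, which the authors made from reads trimmed with fastp 0.23.0 and aligned with HISAT2 2.2.1 to GRCm38 according to the submitters' processing notes; the miRNA annotation and counter were not given in the sources used here. Columns of the authors' own comparison (log2 fold change, mean abundance, p-value, false discovery rate and direction) were not used. The smallest value above 0 in each library was taken as 1 read, and 100% of values were then whole within 0.001. Total reads were 50534 to 519315 per library. Every listed entry had reads in at least 2 libraries.

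The members and lists were chosen with earlier results of these data known. Named in the text were all listed members, the 5 entries most like the group's sum by Pearson's r, and up to 4 of the neighbouring list by aid-sEV mean; other entries were named after their values were seen. log2(RPM + 1) was fitted with limma 3.58.1 (trend, no block, all 718 entries, Benjamini-Hochberg adjustment) in R 4.3.3. A test over 3 against 3 libraries by exact permutation could not go below p = 0.1. The paper states in general that its experiments had 3 or more biological replicates. The animals behind each of these libraries were not given, so the spread may still be technical. Alternatives were pseudocounts of 0.1 and 10, a mean of at least 10 RPM, reads in all 6 libraries, TMM factors, named entries alone, a replicate block, leaving out each library, and edgeR 4.0.16 and DESeq2 1.42.0 on recovered reads. The fits were tested on simulated data. Sequences came from RefSeq (GRCm38.p6), and intervals were Wilson or exact intervals from scipy 1.17.1.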

Additional observations from a re-analysis of the deposited data

How the results depend on the processing

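The summed level of the group had a log2 difference of 7.26 between the diets, with a range of 6.13 to 8.0 over the alternatives. Of the members' own log2 differences, 127 values moved by less than 1 SD between replicates and 30 by more. Part of the 127 could not move. A replicate block and the limma filters leave an estimate as it is, as does leaving out a nid-sEV library for members at 0 there. None of the differences turned negative, which the choice of the members and the 7 members at 0 in every nid-sEV library fix beforehand. The 3p share of 99.57% was 99.09% over the hairpins with both arms listed.

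Counts of calls moved widely, and the settings did not all test the same number of entries. Against 112 entries called higher and 13 lower of 718 tested, a pseudocount of 10 gave 62 higher. A mean of at least 10 RPM gave 69 higher of 516 tested, and reads in all 6 libraries 23 higher of 219. edgeR's quasi-likelihood test on recovered reads gave 48 higher and 21 lower of 245 tested with filterByExpr, and 56 and 7 of 718 without a filter. DESeq2 gave 65 and 50 of 718, with 282 adjusted p-values not set. A pseudocount of 0.1 gave 8 lower and TMM factors 3 lower. Leaving out 1 library gave 33 to 150 higher and 1 to 26 lower, the fewest without nid-sEV replicate 2, where 3 members were called, and the most without nid-sEV replicate 1, where 8 were. Over the other alternatives without the block the members called higher were 6 to 9, or 1 of the 1 member with reads in all 6 libraries. With a mean of at least 10 RPM they were 6 of the 7 members tested, and with filterByExpr 6 of 6. TMM factors moved the median log2 difference of all entries from 1.11 to 1.43, the median of the members relative to it from 4.89 to 5.02, and the ratio of the summed means from 100.5 to 138.

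With a replicate block limma called 0 entries higher and 0 lower, although 148 and 39 had an unadjusted p under 0.05 (158 and 42 without the block). Same-numbered libraries did not deviate together, with correlations of -0.053, 0.058 and -0.051. Differently numbered libraries had correlations from -0.123 to 0.141. So few libraries gave no sign that the numbers pair them, but cannot exclude it.

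With 50534 to 129152 reads per nid-sEV library, no fold can be given for the 5 members under 59.4 RPM in aid-sEVs, 2 of them called higher, and the number of libraries limits every value to 3 per diet.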
